A study of Mus musculus with 27 samples.

Results

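The chemokine genes Ccl2, Ccl7, Ccl11, Ccl19, Cxcl1, Cxcl2, Cxcl10, Cxcl12, and Cxcl14 and the interleukin gene Il6 were followed across the mouse life span. They were chosen by their symbols, with earlier results of these data known. All 10 were among the 22855 genes of both count tables. RNA-Seq had been performed on C57Bl/6 mice, with 12 libraries from sorted cardiac fibroblasts that express PDGFRα and 15 from whole-heart tissue, and the labels give no transgene, allele, or treatment. The fibroblast libraries numbered 3 each at postnatal day 1 (P1) and at 4 weeks and 2 each at the older ages (14 weeks, then 1 year, then 1.5 years), and there were 3 heart libraries at each of these 5 ages. The fibroblasts were obtained by digesting the ventricles with liberase at 37 degrees and sorting the nonmyocyte cells by flow cytometry for PDGFRα, whereas the heart RNA was extracted from tissue without that step. Per the study's methods, the samples of an age came from separate animals, and the fibroblast sets of an age were sorted from different hearts. The paper also states that the fibroblasts and their hearts of origin were both sequenced. The labels do not tie a sample to an animal, so a fibroblast sample could not be matched to its heart. The main comparisons of the tissues therefore used no pairing.

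Chemokines are small secreted proteins that guide leukocytes through tissues by binding G protein-coupled receptors on the moving cell. Some are made continuously and position cells in resting tissue, as CXCL12 does through CXCR4, whereas others, such as CCL2 and CXCL1, are made in bursts after injury or infection. IL-6 is a cytokine that signals through gp130, JAK kinases, and STAT3. Fibroblasts are known sources of both, and many of the inducible genes among them are targets of the transcription factor NF-κB, which is activated by inflammatory signals and by cell stress.

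The fibroblast libraries held 54615898 to 76758831 counts and the heart libraries 46091271 to 67984404. Levels are given as CPM, a sample's count of a gene scaled by its total count, and differences as log2 fold changes with their SEs from counts scaled by the TMM method. All 8 fibroblast markers fixed for the check, Pdgfra, Col1a1, Col1a2, Col3a1, Dcn, Lum, Tcf21, and Ddr2, were higher in the sorted cells than in whole hearts at every age (edgeR, adjusted p under 0.05). Other cells were still represented in the fibroblast libraries. The summed level of 10 macrophage markers ranged from 167 to 330 CPM at P1, from 406 to 722 at 4 weeks, from 49.9 to 67.7 at 14 weeks, from 19.9 to 20.6 at 1 year, and from 74.7 to 96.9 at 1.5 years, and no macrophage marker was at 0 in all libraries of an age. The sum of 9 endothelial markers ranged from 507 to 799 CPM at P1, from 659 to 2171 at 4 weeks, from 1616 to 1952 at 14 weeks, from 474 to 682 at 1 year, and from 312 to 1412 at 1.5 years. That of 6 mural cell markers was highest at 14 weeks, at 317 to 401 CPM against 63.2 to 236 at the other ages, and that of 7 cardiomyocyte markers at P1, at 698 to 756 CPM against 12.2 to 164 later. The 14-week libraries, against which the later ages are set, therefore had higher sums of endothelial and mural markers than those of 1 and 1.5 years, and the part of these cells in the age differences was not tested. The sexes also followed age. Xist, which is transcribed from the inactive X chromosome of females, did not exceed 0.490 CPM in any sample of 14 weeks or 1 year but reached 6.55 CPM or more elsewhere, while the Y-linked gene Ddx3y did not exceed 0.392 CPM in any sample of 1.5 years but reached 1.73 CPM or more elsewhere. The samples of P1 and 4 weeks held both transcripts, those of 14 weeks and 1 year Ddx3y alone, and those of 1.5 years Xist alone at these levels. Each fibroblast library of P1 and 4 weeks held both, with Xist from 147 to 600 CPM and Ddx3y from 25.1 to 50.5 CPM. So did each heart library of these ages, with Xist from 6.55 to 470 CPM and Ddx3y from 1.73 to 39.2 CPM. Whether a library with both held RNA of more than 1 animal was not tested, and the labels do not say. The spread at P1 and 4 weeks may thus not be that of single animals. P1 and 4 weeks therefore share the presence of both transcripts, and 14 weeks and 1 year that of Ddx3y alone. From P1 to 4 weeks Xist still moved, from 147 to 289 CPM to 383 to 600 CPM in fibroblasts. In hearts it moved from 183 to 470 CPM to 6.55 to 148 CPM, while the ranges of Ddx3y overlapped in both tissues. The step from P1 to 4 weeks thus cannot be told apart from a shift in the balance of the sexes. Any other difference between ages, except that from 14 weeks to 1 year, cannot be told apart from a difference in sex. The step from 4 to 14 weeks and the span from P1 to 1.5 years are among these.

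Sequence upstream of the start site was looked up because the inducible members share known regulators. RefSeq promoters on GRCm38.p6 were matched for 7 of the 10 members, all but Ccl2, Ccl7, and Ccl11, and the 250 bases before the start were searched on both strands. The NF-κB motif GGGNNNTTCC was found in 4 of the 7, Cxcl1, Cxcl2, Cxcl10, and Il6, and in 4.65% of 32851 promoter windows of the same length. The activator protein motif TGANTCA, bound by Fos and Jun proteins, was found in Cxcl10 and Il6 and in 6.75% of all windows. The interferon response motif TTTCNNTTTC was found in Ccl19, Cxcl10, and Cxcl14 and in 2.98% of all windows. The exact TATA letters TATAAA were found in none of the 7 and in 12.4% of all windows. Variants of these letters were not searched. The windows below are those of the 4 members with the NF-κB letters and, for contrast, that of Cxcl14, which has none. Each reads 5′ to 3′ along the strand of its gene and ends at the base before the start site, with NF-κB matches in capitals (overlapping matches on both strands run together). The windows are chr5:90890995-90891244 for Cxcl1, chr5:90903649-90903898 for Cxcl2, chr5:30012864-30013113 for Il6, all on the plus strand, and chr5:92348890-92349139 for Cxcl10 and chr13:56296552-56296801 for Cxcl14, both on the minus strand.
Cxcl1: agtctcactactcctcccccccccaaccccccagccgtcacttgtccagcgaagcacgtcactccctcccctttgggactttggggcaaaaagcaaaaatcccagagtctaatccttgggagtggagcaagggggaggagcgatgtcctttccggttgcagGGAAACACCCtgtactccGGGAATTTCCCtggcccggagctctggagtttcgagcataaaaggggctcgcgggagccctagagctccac
Cxcl2: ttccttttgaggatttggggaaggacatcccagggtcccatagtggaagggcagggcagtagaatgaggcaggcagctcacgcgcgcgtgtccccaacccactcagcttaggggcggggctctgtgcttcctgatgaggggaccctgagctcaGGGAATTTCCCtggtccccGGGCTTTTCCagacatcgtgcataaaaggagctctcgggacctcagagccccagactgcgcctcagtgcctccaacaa
Cxcl10: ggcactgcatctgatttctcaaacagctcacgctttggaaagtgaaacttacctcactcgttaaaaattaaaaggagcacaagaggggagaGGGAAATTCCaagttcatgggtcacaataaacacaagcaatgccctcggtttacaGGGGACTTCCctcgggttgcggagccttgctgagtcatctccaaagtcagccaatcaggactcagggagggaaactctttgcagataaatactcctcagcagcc
Il6: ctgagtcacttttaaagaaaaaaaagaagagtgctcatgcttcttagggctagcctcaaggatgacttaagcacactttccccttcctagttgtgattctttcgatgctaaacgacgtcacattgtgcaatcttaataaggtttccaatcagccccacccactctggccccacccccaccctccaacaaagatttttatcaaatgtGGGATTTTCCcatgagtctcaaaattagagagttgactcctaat
Cxcl14: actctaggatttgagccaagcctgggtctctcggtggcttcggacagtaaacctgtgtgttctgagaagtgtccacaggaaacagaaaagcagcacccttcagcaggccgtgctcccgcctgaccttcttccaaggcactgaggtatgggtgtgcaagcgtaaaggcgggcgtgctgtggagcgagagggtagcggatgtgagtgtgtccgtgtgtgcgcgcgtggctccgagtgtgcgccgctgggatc

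A match to these letters is a description of the sequence and does not show that a factor was bound there in these cells. In Cxcl1 and Cxcl2 the matches began 97 bases or fewer before the start site, and in Il6 the match began 44 bases before it.

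In cardiac fibroblasts, all 10 members differed among the 5 ages (edgeR's quasi-likelihood F test, Benjamini-Hochberg adjusted p under 0.05), against 19.9% of the 18759 genes tested. Because the genes were chosen with earlier results of these data known, shares over all genes, here and below, are a description only. The adjusted p ranged from 1.2e-10 for Cxcl14 to 0.019 for Ccl2, and the call for Ccl2 was lost without either 14-week sample (adjusted p = 0.073 without replicate 4 and 0.13 without replicate 6). The 10 genes did not follow a single course. Cxcl14, Ccl11, Ccl19, and Cxcl12 were at or near their lowest level at P1 and much higher in adults. Cxcl1, Il6, and Ccl7 were also lowest at P1 and reached their highest means at 1 or 1.5 years, as Cxcl14 and Ccl11 did at 1 year. Ccl2, Cxcl2, and Cxcl10 were as high at P1 as at some later ages and were lowest at 14 weeks.

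**Figure D1:**
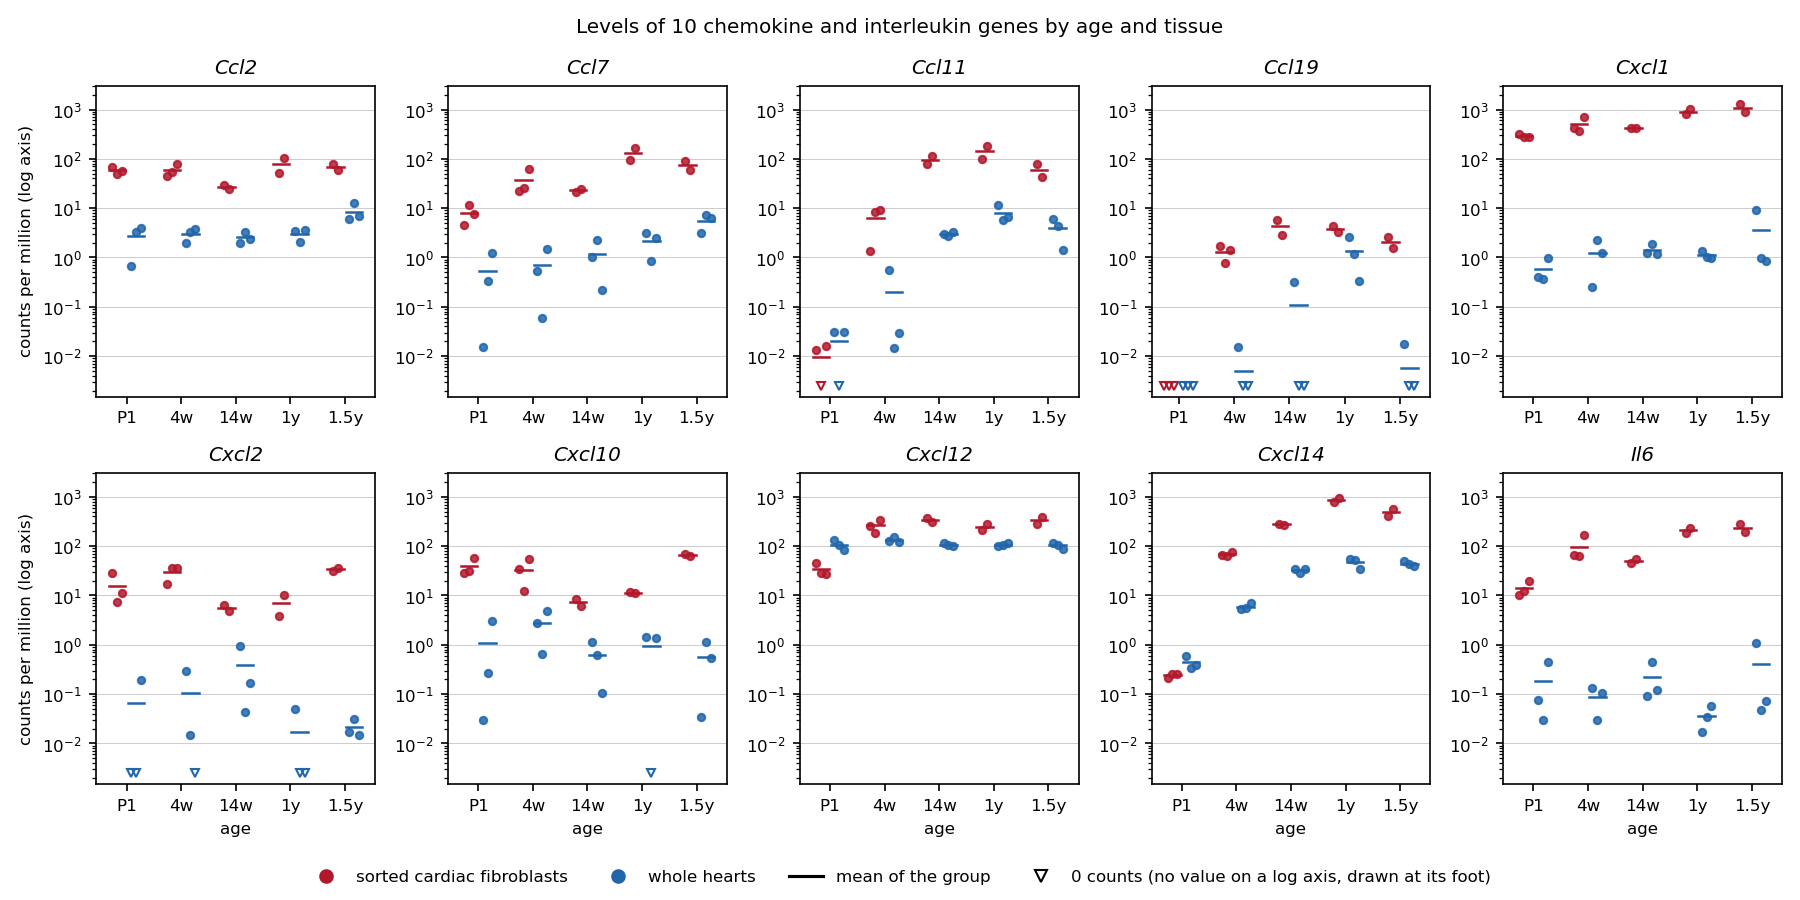
Level of each of the 10 genes in every sample, as CPM on a log axis, by age, for sorted cardiac fibroblasts (red) and whole hearts (blue). Points are samples, bars are group means, and open triangles are samples with 0 counts. In fibroblasts Cxcl14 climbs from at most 0.261 at P1 to 785 and 935 at 1 year, and in all 10 panels except those of Cxcl12, Cxcl14, Ccl11, and Ccl19 the fibroblast points lie above the heart points at every age.

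Cxcl14, which encodes a chemokine made by fibroblasts and epithelia of many resting tissues, rose at each step up to 1 year. It was measured at 0.214, 0.261, and 0.251 CPM in the P1 fibroblasts and at 67.1, 64.4, and 74.5 CPM at 4 weeks. It then reached 288 and 274 CPM at 14 weeks, 785 and 935 at 1 year, and 408 and 558 at 1.5 years. None of the ages overlapped. The log2 fold change was 8.23 ± 0.20 from P1 to 4 weeks (adjusted p = 2.1e-10), 1.98 ± 0.15 from 4 to 14 weeks (adjusted p = 4.0e-05), and 1.79 ± 0.17 from 14 weeks to 1 year (adjusted p = 0.00066). The level at 1.5 years was above that at 14 weeks (0.96 ± 0.17, adjusted p = 0.010), and its drop from 1 year missed the threshold (−0.83 ± 0.17, adjusted p = 0.081). The gene lies on chromosome 13 (56288643 to 56296551, minus strand).

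Ccl11 encodes eotaxin-1, which attracts eosinophils through CCR3. Its P1 fibroblast libraries held 1, 0, and 1 counts. It was at 1.34, 8.20, and 9.13 CPM at 4 weeks, 78.8 and 115 at 14 weeks, 102 and 186 at 1 year, and 77.6 and 42.3 at 1.5 years. The pooled level was 635-fold higher at 4 weeks than at P1 (95% exact counting interval from 175 to 5249), and the rise to 14 weeks was 3.90 ± 0.59 on the log2 scale (adjusted p = 0.0037). Among the 3 later ages no step passed the test. Ccl11 stands beside Ccl7 and Ccl2 on chromosome 11, at 82057823 to 82062955, 82045712 to 82047525, and 82035571 to 82037453, respectively, all on the plus strand, and yet Ccl2 had 69.1, 49.8, and 56.0 CPM in the same P1 libraries.

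Ccl19, whose product guides CCR7-bearing dendritic cells and T cells, had 0 counts in all P1 fibroblast samples, which allows at most 0.0402 to 0.0471 CPM by the limit of 3 counts per library. It was at 1.75, 0.775, and 1.40 CPM at 4 weeks, 5.82 and 2.82 at 14 weeks, 4.27 and 3.27 at 1 year, and 2.65 and 1.54 at 1.5 years. Every later library was above that limit, and the level was at least 29.4-fold higher at 4 weeks and at least 97.3-fold higher at 14 weeks than at P1. Per kilobase Ccl19 was the lowest of the 10 in fibroblasts at 4 weeks and 1.5 years. The annotation holds a Ccl19 pseudogene on the same chromosome and an opposite-strand gene that overlaps Ccl19, so its level is uncertain.

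Cxcl12, the ligand of CXCR4 that retains blood progenitors and guides endothelial cells, stood at 45.4, 29.0, and 27.9 CPM at P1 and at 257, 186, and 347 CPM at 4 weeks. The groups were well apart, with a log2 fold change of 3.04 ± 0.26 (adjusted p = 5.6e-06). All 6 later samples lay between 216 and 389 CPM, and no later step passed the test. The samples of 4 weeks thus overlapped with those of 14 weeks for Cxcl12 but not for Cxcl14 and Ccl11. Its 8176 exon bases on chromosome 6 make it the longest transcribed member, so its CPM overstates its level against the shorter genes.

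Cxcl1 encodes a ligand of the neutrophil receptor CXCR2 and was the most abundant member. It was at 326, 283, and 275 CPM at P1, 427, 359, and 707 at 4 weeks, 417 and 422 at 14 weeks, 797 and 1014 at 1 year, and 1272 and 899.8 at 1.5 years. The samples of 1 and 1.5 years were all above every younger sample. The rise from P1 to 4 weeks was small (0.85 ± 0.22, adjusted p = 0.022) and was lost without replicate 3 of 4 weeks (adjusted p = 0.067) or replicates 2 or 3 of P1 (0.061 and 0.073). From 14 weeks the level rose by 1.29 ± 0.28 to 1 year (adjusted p = 0.036) and by 1.56 ± 0.28 to 1.5 years (adjusted p = 0.012), on the log2 scale. Per kilobase of exon Cxcl1 had the highest mean of the 10 at every age, from 157 ± 14.5 CPM per kilobase (SD, n = 3) at P1 to 579 ± 140 (SD, n = 2) at 1.5 years. At 1 year Cxcl14 was level with it within their spread (471 ± 58.1 for Cxcl14 and 483 ± 81.7 for Cxcl1, CPM per kilobase, SD, n = 2).

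Il6, which encodes the cytokine IL-6, rose at the same steps. Its levels were 10.4, 12.6, and 19.6 CPM at P1, 67.1, 61.8, and 167 at 4 weeks, 45.2 and 54.1 at 14 weeks, 188 and 236 at 1 year, and 278 and 197 at 1.5 years. Every sample of the 2 oldest ages exceeded every younger sample. The log2 fold change was 2.88 ± 0.37 from P1 to 4 weeks (adjusted p = 0.00018), 2.27 ± 0.45 from 14 weeks to 1 year (adjusted p = 0.024), and 2.44 ± 0.45 from 14 weeks to 1.5 years (adjusted p = 0.013). From P1 to 1.5 years Il6 increased 19.4-fold (4.27 ± 0.41, adjusted p = 1.2e-05).

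Ccl7, which encodes a monocyte chemokine acting through CCR2, took a similar course. It was at 4.56, 11.4, and 7.56 CPM at P1, 22.1, 25.8, and 62.6 at 4 weeks, 21.0 and 25 at 14 weeks, 92.8 and 166 at 1 year, and 91.4 and 58.3 at 1.5 years. Replicate 3 of 4 weeks was the highest sample of its age for Ccl7, as it was for Ccl2, Cxcl1, Cxcl10, Cxcl12, Cxcl14, Il6, and Ccl11, and its summed level of 9 endothelial markers was 2171 CPM against 765 and 659 in the other two. Whether these belong together was not tested. Ccl7 rose from P1 to 4 weeks (2.32 ± 0.43, adjusted p = 0.0028) and from 14 weeks to 1 year (2.67 ± 0.54, adjusted p = 0.027), and its difference between 14 weeks and 1.5 years missed the threshold (1.88 ± 0.52, adjusted p = 0.085). Without replicate 3 of 4 weeks that last difference passed (adjusted p = 0.024).

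Ccl2 encodes a monocyte chemoattractant that acts through CCR2. Its levels at P1, 4 weeks, and 1.5 years overlapped. They were 69.1, 49.8, and 56.0 CPM at P1, 44.6, 54.7, and 77.7 at 4 weeks, 30.0 and 24.5 at 14 weeks, 50.9 and 103 at 1 year, and 80.4 and 59.3 at 1.5 years. Both samples of 14 weeks lay below every other fibroblast sample. Ccl2 was higher than at 14 weeks both at 1 year (1.68 ± 0.33, adjusted p = 0.024) and at 1.5 years (1.54 ± 0.33, adjusted p = 0.029), and its fall from 4 to 14 weeks missed the threshold (−1.18 ± 0.30, adjusted p = 0.052), although it passed without replicate 4 or 5 of 1 year or replicate 5 of 1.5 years (adjusted p = 0.027, 0.029, and 0.0496). An annotated gene on the opposite strand, Gm17268, overlaps Ccl2, and the strand setting of the counting is not given in the sources used here.

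Cxcl2 and Cxcl10 fell to 14 weeks and were high again at 1.5 years. Cxcl2, whose product also binds CXCR2, was at 28.0, 7.44, and 11.5 CPM at P1, 16.8, 35.9, and 35.5 at 4 weeks, 6.54 and 4.85 at 14 weeks, 3.90 and 10.4 at 1 year, and 30.7 and 36.8 at 1.5 years. Cxcl10, an interferon-inducible ligand of the T cell receptor CXCR3, was at 28.3, 31.0, and 58.5 CPM at P1, 34.6, 12.1, and 53.9 at 4 weeks, 8.64 and 6.05 at 14 weeks, 11.7 and 11.1 at 1 year, and 70.4 and 62.2 at 1.5 years. For both genes the samples of 14 weeks lay below all those of 4 weeks and of 1.5 years. Cxcl2 fell by 2.43 on the log2 scale (SE 0.59, adjusted p = 0.039) and Cxcl10 by 2.25 (SE 0.52, adjusted p = 0.033) from 4 to 14 weeks. They were higher at 1.5 years than at 14 weeks by 2.75 ± 0.62 (adjusted p = 0.037) and 3.36 ± 0.57 (adjusted p = 0.010). The falls did not pass without either sample of 14 weeks (adjusted p from 0.18 to 0.32), without replicate 3 of 4 weeks (0.073 for Cxcl2 and 0.067 for Cxcl10), without replicate 2 of 4 weeks for Cxcl2 (0.093), or without replicate 1 for Cxcl10 (0.079). Cxcl10 overlaps Art3 on the opposite strand, which ranged from 5.18 to 21.6 CPM in fibroblasts and from 118 to 325 CPM in whole hearts, so reads of the 2 genes may not be told apart.

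Counted by step, 7 of the 10 members rose in cardiac fibroblasts between P1 and 4 weeks, where 9.28% of all genes tested rose. The median log2 fold change of the 10 was 2.60, against 0.0039 over all genes. From 4 to 14 weeks Ccl11 and Cxcl14 rose, where 1.79% of all genes did, and Cxcl2 and Cxcl10 fell, where 2.08% did. From 14 weeks to 1 year, Ccl2, Ccl7, Cxcl1, Cxcl14, and Il6 rose, 5 of 10 against 1.31% of all genes. From 14 weeks to 1.5 years, Ccl2, Cxcl1, Cxcl2, Cxcl10, Cxcl14, and Il6 rose, 6 of 10 against 1.91% of all genes. These comparisons share the 2 samples of 14 weeks. Without replicate 4 or replicate 6 of 14 weeks, none of the 6 calls at 1.5 years held (adjusted p from 0.088 to 0.27, log2 fold changes from 0.94 to 3.62), and at 1 year Cxcl14 alone passed. Without replicate 4 or 5 of 1.5 years 2 and 4 of the 6 calls held, and Cxcl2 was also lost without replicate 2 of 4 weeks (adjusted p = 0.051). From 14 weeks to 1 year, without replicate 4 or 5 of 1 year 2 and 1 of the 5 held, and Cxcl1 was also lost without replicate 1 of 4 weeks or replicate 3 of P1 (adjusted p = 0.050 and 0.051) and by library size only (1.11, adjusted p = 0.065), a scaling that moved the median of all genes by −0.18. A group left with a single sample was assumed to vary like the other groups.

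Between 1 and 1.5 years no member passed edgeR's test, where 0.24% of all genes did, although 3 of the 10 had an unadjusted p under 0.05 and DESeq2 called 3. Without replicate 3 of 4 weeks edgeR called 2, and without replicate 2 of 4 weeks 1. Over the whole span from P1 to 1.5 years 7 members were higher (Ccl7, Ccl11, Ccl19, Cxcl1, Cxcl12, Cxcl14, and Il6), where 9.86% of all genes were.

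**Figure D2:**
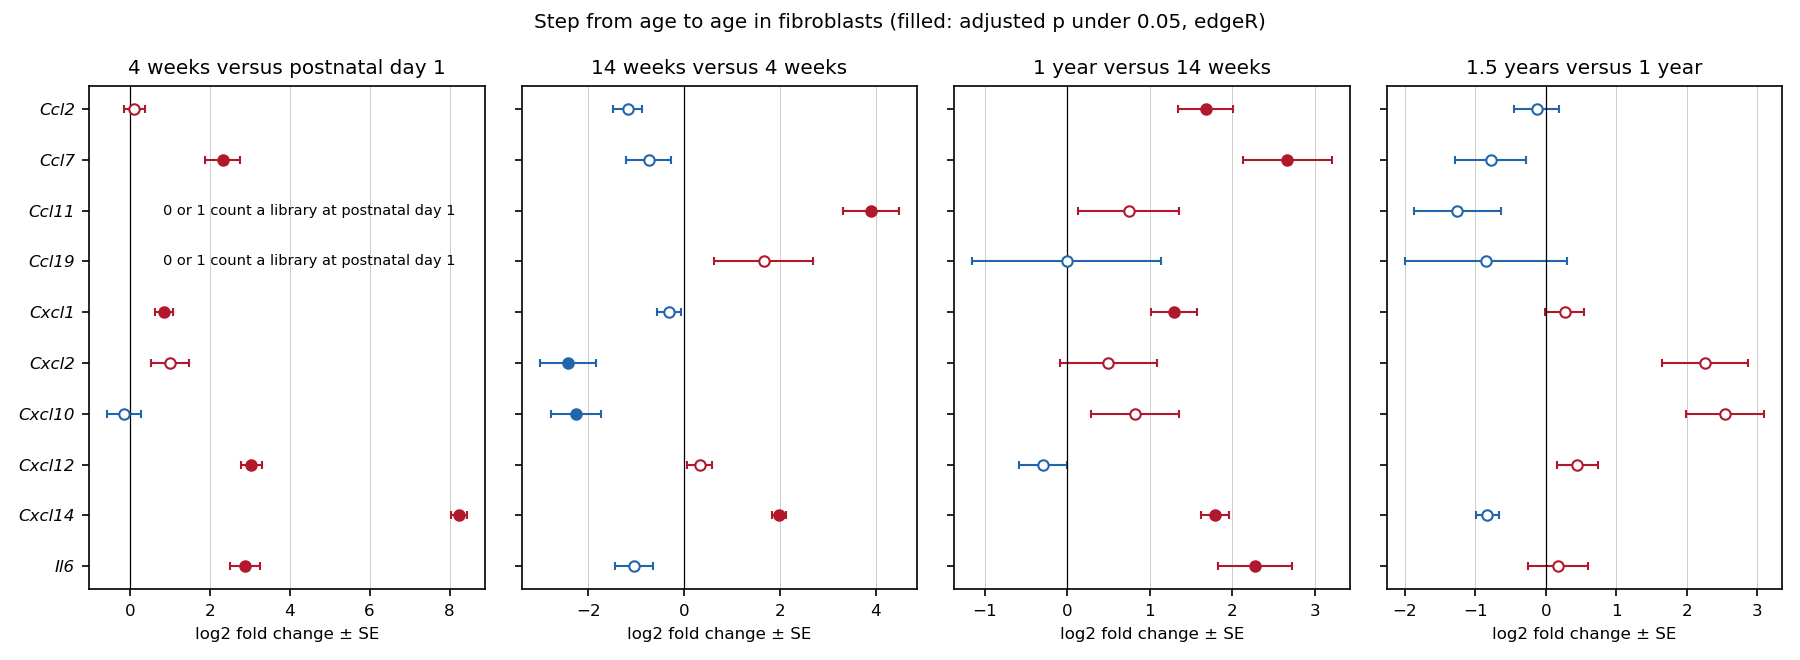
Log2 fold change with SE of each gene at 4 consecutive steps of age in cardiac fibroblasts. Filled points passed an adjusted p under 0.05 and open points did not, red points are rises and blue points are falls, and the scale of the horizontal axis differs between panels. Ccl11 and Ccl19 have no point in the first panel because their libraries of P1 held at most 1 count. All filled points from P1 to 4 weeks and from 14 weeks to 1 year lie to the right of 0, those from 4 to 14 weeks lie on both sides, and the last step has none.

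The whole hearts held far less of most members. Among the ages, 5 of the 10 differed in hearts (Ccl2, Ccl11, Ccl19, Cxcl12, and Cxcl14, edgeR, adjusted p under 0.05), where 34.3% of 17995 genes did. From P1 to 4 weeks 3 members rose, against 12.1% of all genes, from 4 to 14 weeks only Cxcl14 did, against 0.756%, and from P1 to 1.5 years 6 rose, against 15.6%. None passed from 14 weeks to 1.5 years, where 12.8% of all genes did (1 of the 10 had an unadjusted p under 0.05, DESeq2 called 1, and edgeR called Ccl2, with an adjusted p of 0.040, without replicate 1 of P1). None passed from 14 weeks to 1 year or from 1 to 1.5 years, where 0.972% and 2.66% of all genes did; 1 and 2 members, respectively, had an unadjusted p under 0.05, and DESeq2 called 0 and 1. In heart tissue a change in the number of cells of a type and a change in RNA per cell cannot be told apart.

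Cxcl14 rose in whole hearts as well. It was at 0.595, 0.334, and 0.393 CPM at P1, 5.38, 5.49, and 7.0 at 4 weeks, 34.2, 29.2, and 33.7 at 14 weeks, 56.0, 53.3, and 35.2 at 1 year, and 49.5, 43.5, and 38.8 at 1.5 years. The first 3 ages did not overlap with each other or with the later ages. The log2 fold change was 4.25 ± 0.27 from P1 to 4 weeks (adjusted p = 1.7e-08) and 2.69 ± 0.24 from 4 to 14 weeks (adjusted p = 2.4e-05).

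Ccl11 in hearts held 2, 0, and 2 counts at P1. It was at 0.553, 0.0147, and 0.0298 CPM at 4 weeks, 2.95, 2.67, and 3.35 at 14 weeks, 11.4, 5.70, and 6.69 at 1 year, and 5.91, 4.30, and 1.41 at 1.5 years. Its pooled level at 14 weeks was 149-fold that at P1 (95% exact counting interval from 57.7 to 548). The call at 4 weeks (3.70 ± 1.18, adjusted p = 0.039) rested on replicate 1, without which the log2 fold change was 0.53 (adjusted p = 0.79), and was lost without any of 9 other libraries (adjusted p from 0.052 to 0.13). In the same way the rise from 4 to 14 weeks missed the threshold (4.07 ± 1.05, adjusted p = 0.066) and passed without replicate 1 of 4 weeks (7.24, adjusted p = 0.0024) or replicate 3 of 1.5 years (4.07, adjusted p = 0.038). Ccl19 was detected mainly at 1 year, at 2.59, 1.15, and 0.340 CPM, where the other 12 heart libraries held from 0 to 0.326 CPM, and its call among the ages was lost without replicate 1 of 1 year (adjusted p = 0.070).

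Cxcl12 stayed between 81.9 and 150 CPM in all hearts. The samples held 132, 104, and 81.9 CPM at P1, 127, 150, and 124 at 4 weeks, 114, 106, and 101 at 14 weeks, 102, 103, and 114 at 1 year, and 117, 108, and 86.8 at 1.5 years. P1 overlapped with every later age. After TMM scaling Cxcl12 was higher at 4 weeks than at P1 (0.84 ± 0.17, adjusted p = 0.0018) and at 1.5 years than at P1 (0.57 ± 0.17, adjusted p = 0.016). By library size only these became 0.33 (adjusted p = 0.16) and −0.03 (adjusted p = 0.93), while the median of all genes moved by −0.51 and −0.60, so the rise of heart Cxcl12 is relative to other genes. The call at 1.5 years was also lost without replicate 1 of 1.5 years or replicate 3 of P1 (adjusted p = 0.058 and 0.059).

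The inducible members were scarce in hearts. Ccl2 was at 0.687, 3.34, and 4.00 CPM at P1, stayed between 1.94 and 3.81 CPM from 4 weeks to 1 year, and was at 5.90, 12.5, and 6.96 CPM at 1.5 years. The samples of 1.5 years were above all other hearts, with a log2 fold change from P1 of 2.25 ± 0.60 (adjusted p = 0.0087). The call for Ccl2 among the ages was lost without replicate 2 of 1.5 years (adjusted p = 0.21) and without any of 5 others (replicate 3 of 1.5 years, replicates 1 and 3 of 14 weeks, and replicates 1 and 3 of 1 year, adjusted p from 0.052 to 0.061). Ccl7 at 1.5 years was 3.12, 7.14, and 6.19 CPM against 0.0153, 0.334, and 1.25 at P1 (3.94 ± 1.33, adjusted p = 0.032), and that call was lost without replicates 2 or 3 of 1.5 years or replicates 1 or 2 of P1 (adjusted p from 0.057 to 0.10).

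Beside these rises in hearts, 9 of 10 macrophage markers were higher at 1.5 years than at P1, and their summed level was from 131 to 152 CPM at P1 and from 612 to 872 CPM at 1.5 years. Their part in the rise of Ccl2 and Ccl7 was not tested. Heart Cxcl1 was at 9.19, 0.989, and 0.839 CPM at 1.5 years against 0.397, 0.365, and 0.982 at P1. The groups overlapped, and the call (3.24 ± 1.08, adjusted p = 0.031) rested on replicate 1 of 1.5 years, without which the log2 fold change was 1.24 (adjusted p = 0.38). It was also lost without replicates 1 or 2 of P1 (adjusted p = 0.089 and 0.10). The same heart had 1.09 CPM of Il6, where the other 14 hearts held from 0.0169 to 0.456 CPM. For Il6, Cxcl2, and Cxcl10 no difference among the ages was detectable in hearts at this depth (adjusted p = 0.53, 0.41, and 0.75).

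Compared with whole hearts of the same age, cardiac fibroblasts were higher in 6 members at P1, in 10 at 4 weeks, in 8 at 14 weeks, in 9 at 1 year, and in all 10 at 1.5 years. Over all genes tested, 13.6%, 17.5%, 17.1%, 16.7%, and 21% were higher in fibroblasts at these ages. The log2 difference of Il6 was 6.34 ± 0.84 at P1 (adjusted p = 1.9e-06), 9.71 ± 0.97 at 4 weeks (adjusted p = 1.7e-08), 7.20 ± 0.89 at 14 weeks (adjusted p = 5.1e-07), and 8.90 ± 0.91 at 1.5 years (adjusted p = 2.4e-08). At 1 year the fibroblasts held 188 and 236 CPM of Il6 (30070 counts) and the 3 hearts 6 counts together, and the ratio of the pooled counts was 5968 (95% exact counting interval 2742 to 16263). That of Cxcl1 lay between 7.52 ± 0.82 at 14 weeks and 9.30 ± 0.88 at 1 year, and that of Ccl2 between 2.72 ± 0.47 at 1.5 years and 4.52 ± 0.48 at P1.

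The sorted cells also differed from tissue in genes that can respond within minutes to handling. All 19 immediate early and heat shock genes on a fixed list were higher in fibroblasts than in hearts at every age, with summed levels from 16770 to 53016 CPM in fibroblasts and from 382 to 900 CPM in hearts. The part of digestion and sorting in the high Cxcl1, Cxcl2, Ccl2, Ccl7, Cxcl10, and Il6 of the fibroblast libraries was not tested, and the method of preparation cannot be told apart from the tissue in this design.

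At P1, 2 members were lower in fibroblasts than in hearts, where 18.7% of all genes were. Cxcl12 was at 27.9 to 45.4 CPM in fibroblasts and at 81.9 to 132 CPM in hearts (−1.57 ± 0.22, adjusted p = 3.2e-06), and from 4 weeks on the fibroblasts were above the hearts. Cxcl14 was also lower at P1 (−0.80 ± 0.27, adjusted p = 0.023), a call that was lost without any of 13 libraries (adjusted p from 0.075 to 0.19). Ccl19 at 14 weeks and 1 year and Cxcl10 at 14 weeks did not pass (adjusted p = 0.054, 0.69, and 0.079). Ccl19 at 14 weeks passed without any of 8 libraries, with an adjusted p of 0.0025 without replicate 1 of the 14-week hearts, the only one of them with a count of Ccl19, and of 0.045 to 0.049 without any of the other 7. Cxcl10 at 14 weeks passed without replicate 2 of the 1-year hearts or replicate 3 of the P1 hearts (adjusted p = 0.042 and 0.044). Of the tissue differences that passed, those lost on leaving out a library were Cxcl10 at 4 weeks (4 libraries, adjusted p up to 0.11) and at 1 year (16 libraries, up to 0.13), Cxcl12 at 4 weeks (2 libraries, up to 0.19) and at 1 year (replicate 5 of the 1-year fibroblasts, 0.092), and Cxcl2 at 14 weeks (5 libraries, up to 0.11).

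**Figure D3:**
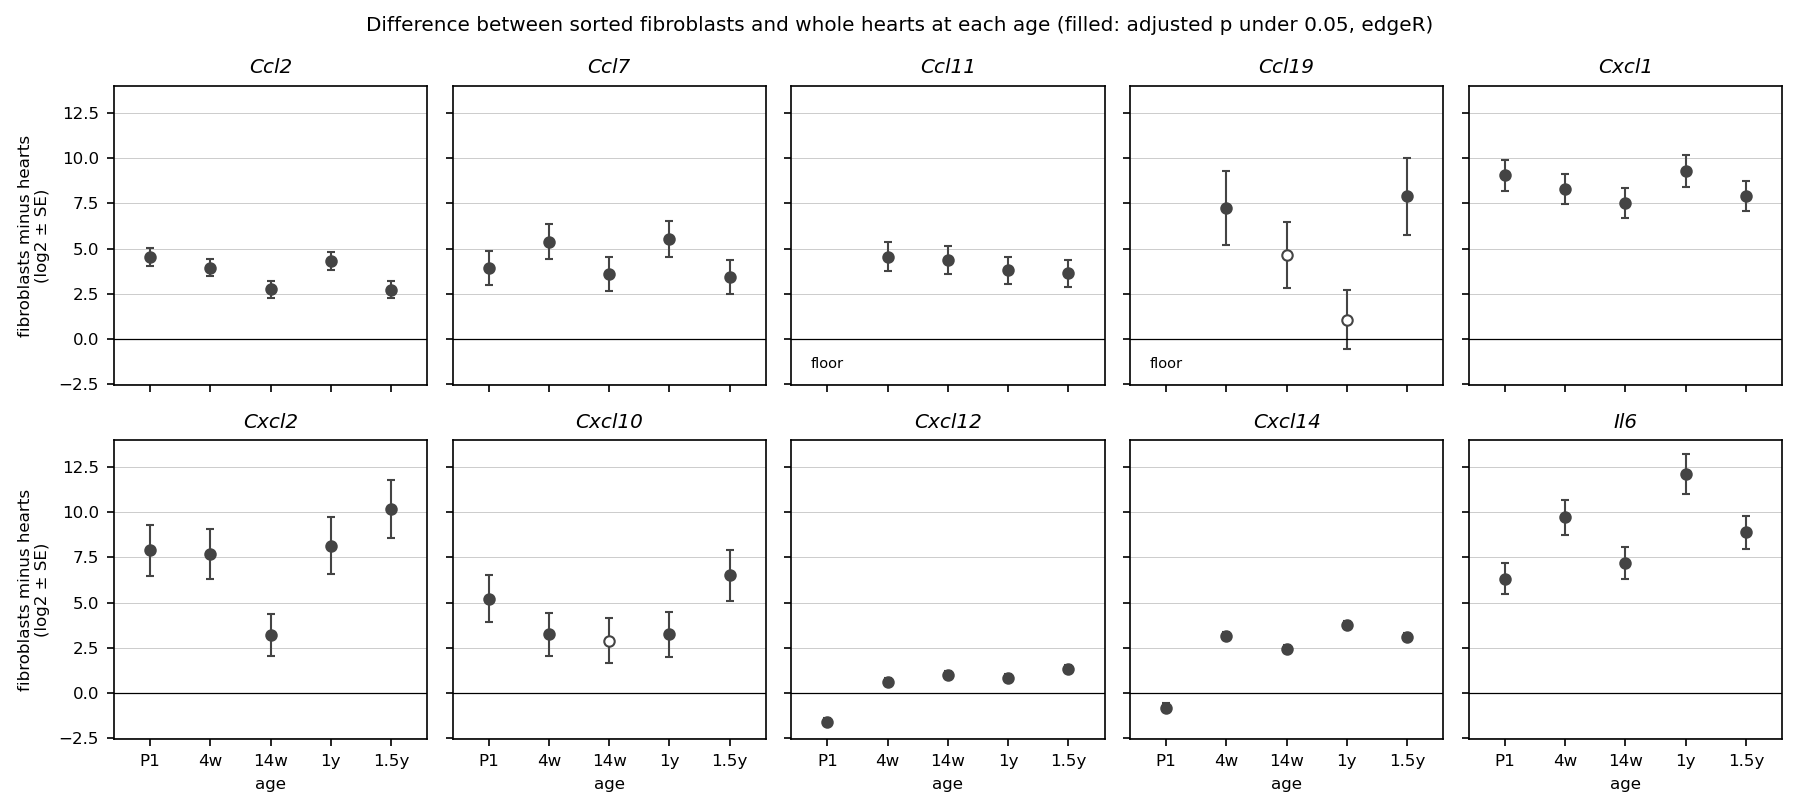
Log2 difference between sorted cardiac fibroblasts and whole hearts with SE for each gene, by age. Filled points passed an adjusted p under 0.05, and floor marks ages at which no library of either tissue held more than 3 counts. Cxcl12 and Cxcl14 lie below 0 at P1 (−1.57 and −0.80) and above 0 at every later age, and the points of Il6 at 1 year, Cxcl2 at 1 and 1.5 years, and Ccl19 at 4 weeks and 1.5 years are set against hearts with at most 3 counts each and are no bounds.

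The change from P1 to 4 weeks differed between the tissues for 2 members, where 3.18% of all genes passed with a more positive change in fibroblasts. The rise of Cxcl12 was greater in fibroblasts by 2.19 ± 0.30 on the log2 scale (adjusted p = 5.0e-05), and that of Cxcl14 by 3.97 ± 0.33 (adjusted p = 5.6e-08). Ccl11 also passed without replicate 1 of the 4-week hearts (adjusted p = 0.025), and Il6 without replicate 1 of the 1.5-year hearts (adjusted p = 0.032). The change from 14 weeks to 1.5 years differed for none, where 2.71% of all genes did, with 2 of the 10 at an unadjusted p under 0.05 and 1 called by DESeq2. Il6 passed without replicate 1 of the 1.5-year hearts (4.31, adjusted p = 0.031), and Cxcl2 passed without any of 6 heart libraries (adjusted p from 0.029 to 0.048).

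Other genes of the pathway were followed on lists fixed by symbol. Unlike those of the members, calls on the lists, here and below, were not checked by leaving out libraries or by other methods and scalings. In fibroblasts, those from 14 weeks rest on the same 2 samples as the member calls. Of 19 other chemokine ligands tested in fibroblasts, Cx3cl1 and Ccl8 rose from P1 to 4 weeks and none fell, and Cx3cl1 alone rose from 14 weeks to 1.5 years. Cx3cl1, a membrane-bound ligand of CX3CR1, changed by 2.99 (adjusted p = 3.8e-06) and 1.69 (adjusted p = 0.0076) on the log2 scale. None of 11 chemokine receptors changed at either step, and their summed level in fibroblasts never exceeded 39.5 CPM. The atypical receptors, which take up chemokines without signaling through G proteins, were far more abundant. Their sum was from 59.1 to 66.7 CPM at P1 and from 630 to 775 CPM at 4 weeks, and of the 4, Ackr3, which scavenges CXCL12, rose by 5.23 on the log2 scale (adjusted p = 1.7e-07) and Ackr2 from between 0 and 2.09 CPM to between 42.4 and 53.2 CPM (adjusted p = 0.0028). From 14 weeks to 1.5 years Ackr4 alone fell.

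Among receptor chains of the IL-6 family, Il6ra, Il6st, and Osmr rose and Lifr fell from P1 to 4 weeks. Il6st, which encodes gp130, rose by 0.60 (adjusted p = 0.0035) and Il6ra by 1.98 (adjusted p = 0.0024). None of these 4 changed from 14 weeks to 1.5 years. Of the 6 related cytokines tested, Osm alone rose from P1 to 4 weeks (adjusted p = 0.019) and none changed from 14 weeks to 1.5 years. Downstream, 3 of 8 JAK-STAT genes rose from 14 weeks to 1.5 years, and they were Socs1 (3.26, adjusted p = 0.00030), Pim1 (2.44, adjusted p = 0.0013), and Socs3 (1.34, adjusted p = 0.0036). Socs1 and Socs3 encode feedback inhibitors of cytokine signaling. The same 3 genes rose from 14 weeks to 1 year.

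Of 14 genes for NF-κB subunits and feedback regulators, 8 rose in fibroblasts from 14 weeks to 1.5 years and none fell, with a median log2 fold change of 1.66 for the list and −0.0029 for all genes. Those with the smallest adjusted p were Nfkbia, which encodes the inhibitor IκBα (2.53, adjusted p = 0.0015), Tnfaip3 (1.90, adjusted p = 0.0073), Relb (2.22, adjusted p = 0.0075), and Zc3h12a, whose product degrades Il6 mRNA (2.58, adjusted p = 0.010). From 14 weeks to 1 year 4 of the 14 rose, and both comparisons rest on the 2 samples of 14 weeks. Their summed level was from 993 to 1046 CPM at 14 weeks, from 1493 to 1931 at 1 year, and from 2255 to 2447 at 1.5 years, and the ranges of these 3 ages did not overlap. In hearts none of the 14 changed from 14 weeks to 1.5 years, and the change differed between the tissues for 5 of the 14, of which Nfkbia (2.68, adjusted p = 0.00045), Nfkb2, Relb, and Zc3h12a had the smallest adjusted p.

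The 19 immediate early and heat shock genes were followed in the same way. In fibroblasts 15 of 19 rose from P1 to 4 weeks, 8 of 19 from 14 weeks to 1.5 years, and 5 of 19 from 14 weeks to 1 year. Those with the smallest adjusted p from 14 weeks to 1.5 years were Jund (1.52, adjusted p = 0.00098), Fosb, Klf4, and Junb. The summed level was from 16770 to 23964 CPM at P1, from 38813 to 44319 at 4 weeks, from 38448 to 41193 at 14 weeks, from 44951 to 48214 at 1 year, and from 50553 to 53016 at 1.5 years. The highest levels of this list thus fell at the ages with the highest Cxcl1 and Il6. Its ranges at 4 and 14 weeks overlapped, however, where Cxcl2 and Cxcl10 fell. Whether the response of the cells to isolation changed with age was not tested. Of 12 interferon-stimulated genes 9 rose from P1 to 4 weeks, with the smallest adjusted p for Ifit3 (3.51, adjusted p = 7.7e-06), and from 14 weeks to 1.5 years Irf1 alone did (2.00, adjusted p = 0.041).

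Markers of macrophages followed another course from most members. Of 10 macrophage markers in fibroblasts, 4 rose from P1 to 4 weeks, 7 fell from 4 to 14 weeks, 1 fell from 14 weeks to 1 year, and none changed from 14 weeks to 1.5 years. Il6, Ccl7, and Cxcl1 were higher at 1 year than at P1 in libraries that held from 19.9 to 20.6 CPM of these markers at 1 year and from 167 to 330 CPM at P1. Cxcl2 and Cxcl10, in contrast, were low at 14 weeks and 1 year, where the macrophage sum was also lowest, but at 1.5 years, with a macrophage sum of 74.7 to 96.9 CPM that lay below those of P1 and 4 weeks, Cxcl10 (70.4 and 62.2 CPM) and Cxcl2 (30.7 and 36.8 CPM) had their highest means. The part of macrophage RNA in the levels of Il6, Ccl7, Cxcl1, Cxcl2, and Cxcl10 was not tested. The 5 neutrophil markers summed to at most 4.97 CPM through 1 year and to 8.07 and 39.1 CPM at 1.5 years. The 6 lymphocyte markers summed to 0 at P1 and to at most 6.99 CPM later. Both lists had their highest mean at 1.5 years, as Cxcl1 and Il6 did. Replicate 5 of that age held 39.1 and 6.99 CPM of the neutrophil and lymphocyte markers, and replicate 4 held 8.07 and 0.660 CPM. Cxcl1 and Il6 were higher in replicate 4 (1272 and 278 CPM) than in replicate 5 (899.8 and 197 CPM). The part of neutrophil and lymphocyte RNA in these levels was not tested.

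**Figure D4:**
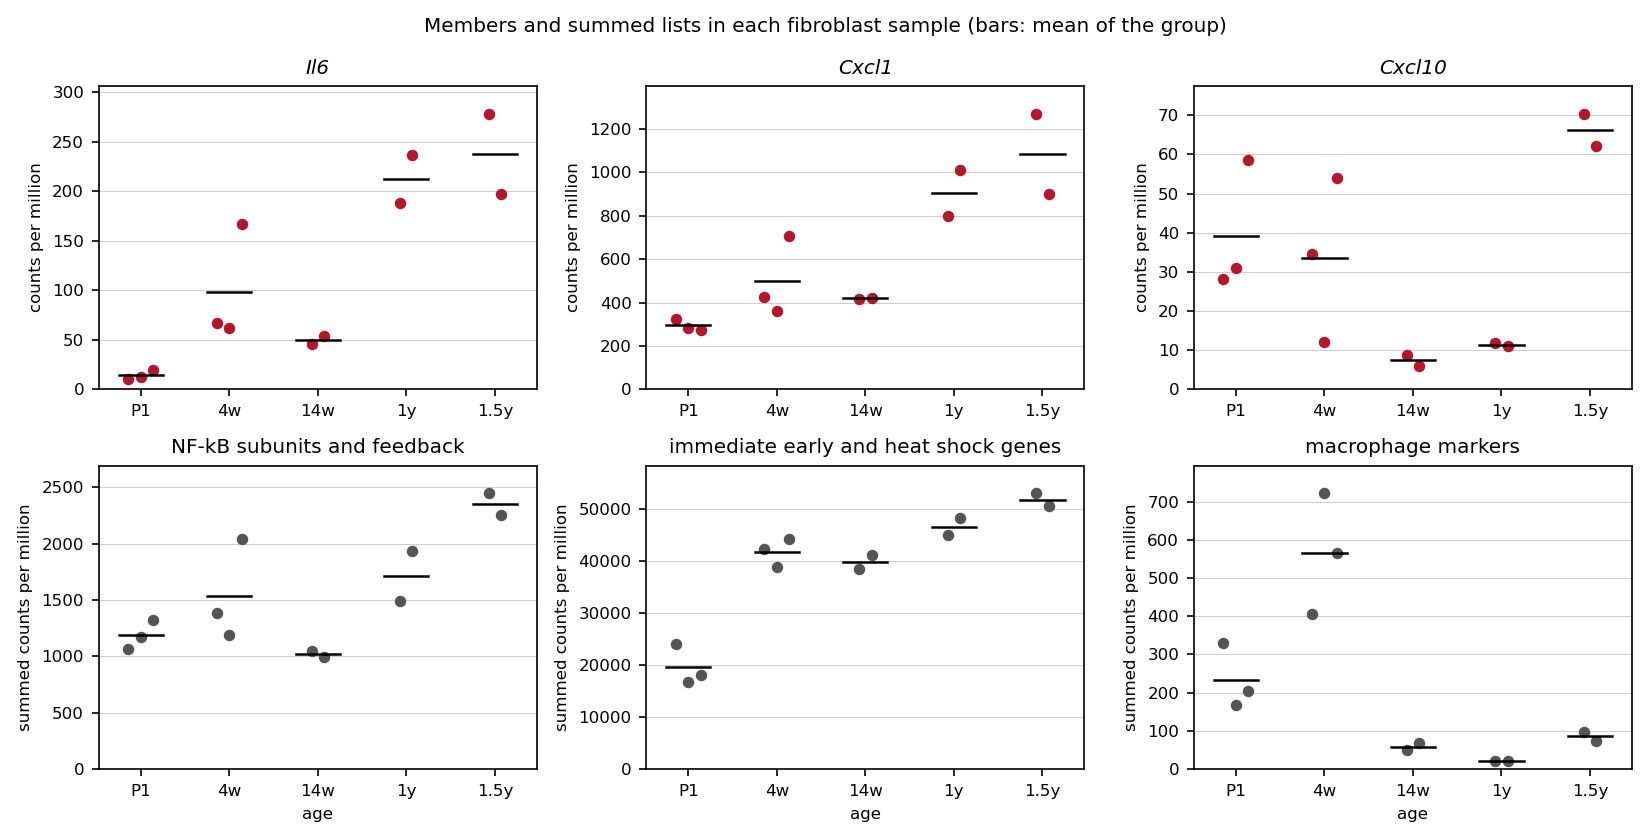
Level of Il6, Cxcl1, and Cxcl10 (top) and summed level of 14 NF-κB genes, 19 immediate early and heat shock genes, and 10 macrophage markers (bottom) in each cardiac fibroblast sample, as CPM, by age. Points are samples and bars are means. The NF-κB sum is lowest at 14 weeks (993 to 1046) and highest at 1.5 years (2255 to 2447), as Cxcl10 is, while the macrophage sum peaks at 4 weeks.

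The genes whose log2 CPM was most like each member across the 12 fibroblast samples were found among those with a mean of at least 5 CPM, as a description without a test, since the samples share the 5 ages. For Il6 they were Zc3h12a and Has1 (Pearson r = 0.98 for both), and for Ccl7 they were Il6 (0.96) and Iqsec2 (0.95). Has1 encodes a hyaluronan synthase. For Cxcl1 they were the heat shock gene Dnajb1 (0.97) and Tnfaip3 (0.96), a feedback inhibitor of NF-κB. For Cxcl10 they were the interferon-inducible transcription factor gene Irf1 (0.94) and Wsb1 (0.93), and for Cxcl2 they were Gprc5a (0.92) and Jdp2 (0.87).

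The members that were lowest at P1 were matched by other genes of that course. For Cxcl14 they were Aox3 (1.00) and Serping1 (0.99), the latter encoding the C1 inhibitor of complement. For Ccl11 they were Rnase4 and Slco2b1 (0.99 for both), for Ccl19 Serpinf1 and Blnk (0.99 for both), and for Cxcl12 Mndal and H2-Q7 (0.99 for both). For Ccl2 the closest were Blvrb (0.86) and CAAA01147332.1 (0.85), the lowest values of the 10. Between members the same measure was 0.94 for Il6 and Cxcl1, 0.98 for Cxcl14 and Ccl11, and 0.12 for Il6 and Cxcl10.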

How the data were processed

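RNA-Seq libraries of polyadenylated RNA were sequenced by the authors, and the deposited files hold raw counts per gene in 12 cardiac fibroblast and 15 whole-heart samples. The submitters' processing notes name STAR 2.5.3a and build mm10, and the annotation and strand setting are not given in the sources used here. Per the labels, samples were grouped by tissue and age. Raw counts were tested with edgeR 4.0.16 (filterByExpr, TMM scaling, quasi-likelihood F test, Benjamini-Hochberg adjustment over all genes tested, threshold 0.05) in R 4.3.3, with 1 fit for fibroblasts, 1 for hearts, and 1 for all samples, and the code was tested on simulated data. The 10 genes and the gene lists were chosen with earlier results of these data known. Pathway genes are named where they passed, at most 4 a list, by smallest adjusted p, and 2 genes per member by Pearson correlation of log2 CPM (prior count 2) over genes with a mean of at least 5 CPM. A limit of 3 counts per library was used for genes at 0, and counting intervals are exact at 95% and cover counting error only. The depth of 46091271 to 76758831 counts per sample sets that precision. Alternatives were DESeq2 1.42.0, other scalings, no filter, only the groups compared, no mitochondrial genes, a replicate block, and leaving out each library. The replicate numbers were not used to pair samples in the main fits. Gene positions are those of GENCODE M21 on GRCm38. Several listed genes are not analysed here.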

Additional observations from a re-analysis of the deposited data

Results flagged for a closer look

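The change of Cxcl12 and of Cxcl14 from P1 to 4 weeks differed between cardiac fibroblasts and whole hearts by a test of that difference itself (edgeR, interaction of tissue and age). The difference was 2.19 ± 0.30 on the log2 scale for Cxcl12 (adjusted p = 5.0e-05) and 3.97 ± 0.33 for Cxcl14 (adjusted p = 5.6e-08), with the larger rise in fibroblasts for both. Both calls held on leaving out each library.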

How the results depend on the processing

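Of 86 differences of single members that passed, 63 held on leaving out each library in turn and 23 were lost without at least 1. DESeq2 kept 84 of the 86, median-of-ratios size factors 84, no filter 85, no mitochondrial genes 85, library size only 80, and the groups compared alone 79 of 85, all in the same direction except Cxcl12 in hearts between P1 and 1.5 years, which was −0.027 (adjusted p = 0.93) by library size only.

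Several counts of members moved by more than 1.5 times. By library size only, hearts had 3 members that differed among ages in place of 5, 1 in place of 3 from P1 to 4 weeks, and 3 in place of 6 from P1 to 1.5 years. DESeq2 called 3 in place of 0 in fibroblasts from 1 to 1.5 years, 2 in place of 1 in hearts from 4 to 14 weeks, 1 in place of 0 in hearts from 14 weeks and from 1 year to 1.5 years, and 1 in place of 0 for the later difference between tissues. With no filter, and with only the groups compared, 1 was called in fibroblasts from 1 to 1.5 years, and the latter also called 1 in hearts from 14 weeks to 1 year and 1 for the later difference between tissues. The cause was not tested.

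On leaving out 1 library, fibroblast counts ranged from 9 to 10 among ages, from 6 to 8 for P1 to 4 weeks, from 2 to 5 for 4 to 14 weeks, from 1 to 5 for 14 weeks to 1 year, from 0 to 2 for 1 to 1.5 years, from 0 to 7 for 14 weeks to 1.5 years, and from 7 to 8 for P1 to 1.5 years. Heart counts ranged from 3 to 5 among ages, from 2 to 3, from 1 to 2, from 0 to 0, from 0 to 0, from 0 to 1, and from 4 to 6 for the same steps. Counts between tissues ranged from 7 to 8 at P1, 8 to 10 at 4 weeks, 7 to 9 at 14 weeks and at 1 year, and 10 to 10 at 1.5 years, and the differences of changes from 2 to 3 and from 0 to 1.

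Same-numbered samples did not deviate together by the median correlation of their deviations (0.0052 in fibroblasts and −0.016 in hearts). The fibroblast value rests on 7 pairs, and in ages with 2 samples the deviations mirror each other. The check therefore cannot exclude a shared batch or animal. With the replicate block, 0 members were called in fibroblasts from 14 weeks to 1 year and 0 from 14 weeks to 1.5 years, and 2 in hearts from 4 to 14 weeks. The block kept 31 of 48 calls it could be fitted to. The fibroblast samples of 14 weeks and older number 2 per age, which limits the calls at those ages, and the steps from 14 weeks to 1 year and from 1 to 1.5 years were chosen after seeing the data.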
